A study of Bos taurus with 15 samples.

Results

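The genes described here are 9 immediate early genes of bovine skeletal muscle: FOS, JUN, JUNB, ATF3, EGR1, MYC, IER2, IER3 and CCN2, which the array annotation calls CTGF. They were taken by name as a family, and each was found on the array by its gene name, gene identifier or the human symbol in the probe description. They are 9 of the 15497 named genes that could be tested. Each of the 9 was measured by 1 probe with 2 spots, and each had a value on all 15 arrays. On the 8 arrays whose scanner output was used here, every one of these probes lay well above background, and 0 of them were saturated.

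Immediate early genes are switched on within minutes of a stimulus, without new protein synthesis, by transcription factors already present in the cell, such as SRF with its ELK partners and CREB. Their transcripts are short-lived, and many encode transcription factors that start a second wave of expression. In skeletal muscle they respond to contraction, stretch, injury and growth factors, and also to handling and stress around tissue sampling.

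Muscle of the biceps brachii was collected at slaughter from 8 cattle that had received the synthetic glucocorticoid prednisolone orally for 35 days, at a daily dose of 30 mg per animal, and from 7 control cattle. Total RNA of each animal was hybridised to 1 single-colour Agilent bovine oligonucleotide array. P25 to P32 are the prednisolone animals, and C17, C18 and C20 to C24 are the controls. RNA was extracted with TRIzol and an RNeasy MinElute cleanup in the prednisolone group, and with the RNeasy Mini kit in the control group, so treatment and extraction cannot be told apart. The treatment text attached to the controls names Finaplix, Revalor and dexamethasone, and does not say that the animals labelled as controls received them. The labels used here give no age, breed or time between the last dose and slaughter. Values are log2 intensities, with every array shifted to a common 75th percentile. Differences are prednisolone minus control, and a gene is called where its adjusted p in limma is under 0.05. The number of arrays limits the precision.

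Across the series, the share of spots with a value ran from 72.1% to 87.4% per array. Markers of skeletal muscle fibres were bright on all arrays, with a list mean between 15.83 and 16.65 in prednisolone animals and between 15.90 and 16.61 in controls. Some arrays also carried transcripts that do not belong to muscle. The mean of 4 testis germ cell transcripts ranged from 4.40 to 13.87 in prednisolone animals and from 8.37 to 14.75 in controls, with P31 and C20 highest in their groups. The mean of 4 thymocyte transcripts was highest on P30, P32 and C17, at 9.87, 9.35 and 11.07. Because the samples are whole tissue, fewer cells of a type and less RNA per cell cannot be told apart.

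None of the 9 immediate early genes differed between prednisolone and control muscle beyond the spread between animals. Of these genes 0 were called, against 0% of all 15497 genes, and 0 had an unadjusted p under 0.05 in limma, against 3.23% of all genes (501 genes, 253 of them higher and 248 lower). The groups overlapped for each of the 9, as they did for every gene with values on all arrays (0% without overlap). The difference was above 0 for 7 of the 9 and below 0 for FOS and MYC. The median of the 9 was 0.23 log2, beside 0.011 over all genes. This lean depended on the processing. With arrays weighted by their quality, JUN, JUNB and ATF3 joined FOS and MYC below 0, at -0.065, -0.044 and -0.12. Several of the 9 genes varied widely from animal to animal. The pooled SD of ATF3, EGR1 and FOS was 1.25, 1.22 and 1.11 log2, against a median of 0.34 over the 9725 bright genes, which had values on all arrays and lay well above background on all 8 prednisolone arrays.

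**Figure D1:**
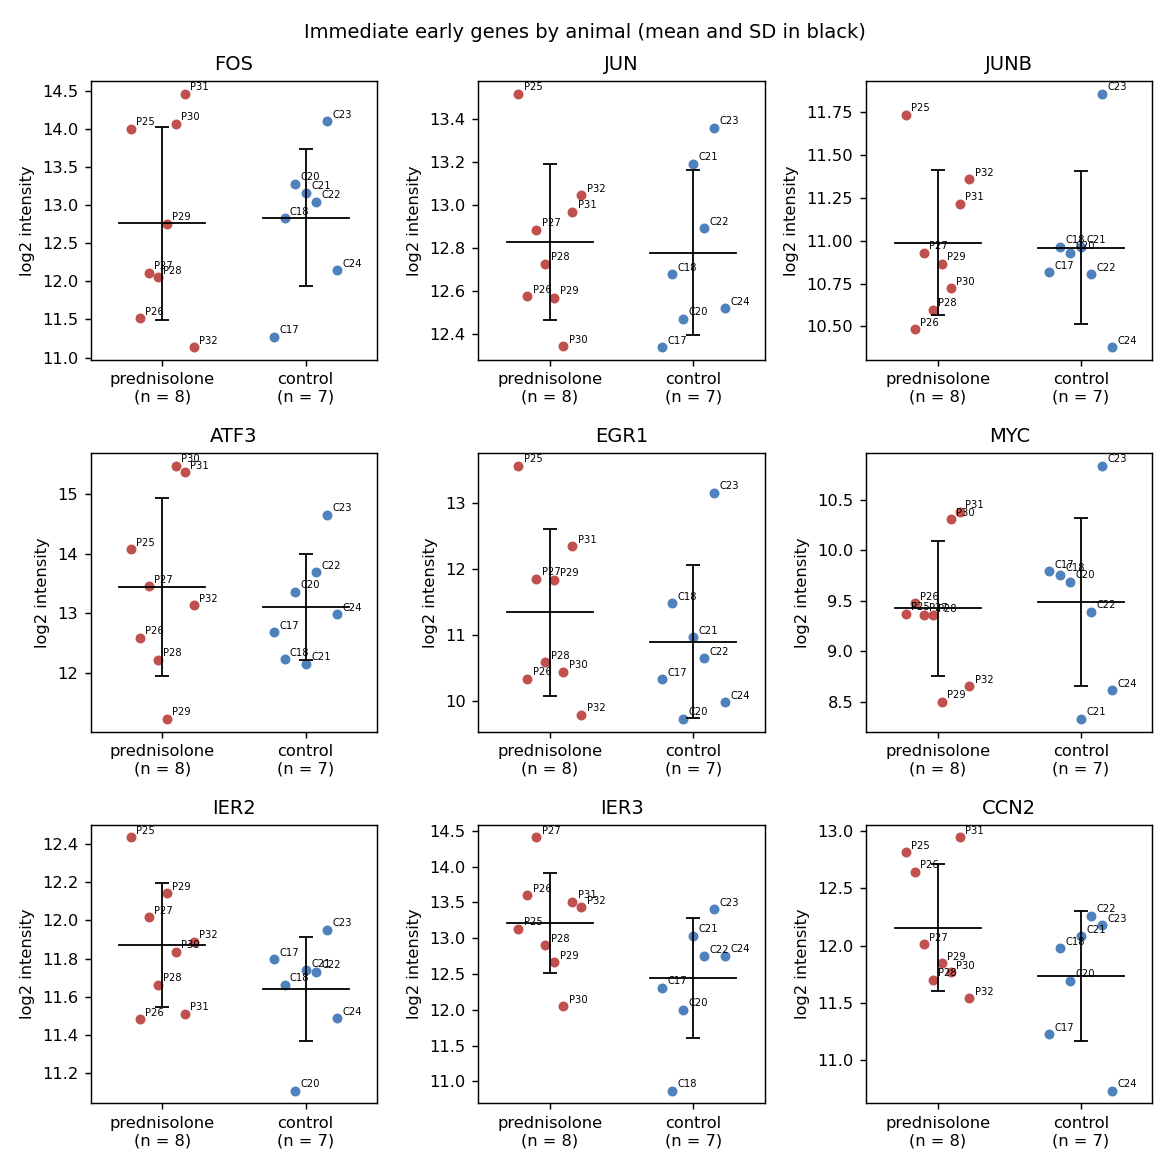
Log2 intensity of each of the 9 genes in each animal, prednisolone (red, left) and control (blue, right), with the group mean and SD in black. The groups overlap in every panel, and C23 is the highest control in 8 of the 9 panels.

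FOS, which pairs with JUN proteins to form the AP-1 transcription factor, was among the most variable genes of the muscle. It ran from 11.14 on P32 through a median of 12.43 to 14.46 on P31 in prednisolone animals, and from 11.27 on C17 through 13.05 to 14.10 on C23 in controls. In the prednisolone group P25, P30 and P31 lay at 14.00 or above, P29 was at 12.75, and the other animals lay at 12.11 or below. In the control group 5 of the 7 animals lay between 12.83 and 14.10. The means were 12.76 ± 1.27 in prednisolone animals and 12.83 ± 0.90 in controls (SD, n = 8 and 7). The difference was -0.07 log2 (95% interval -1.22 to 1.08, adjusted p = 0.998 in limma), and it lay between -0.33 without C17 and 0.16 without P32. With arrays weighted by their quality it was -0.48. The interval is wide enough to hold a 2-fold change in either direction. Highest and lowest animal of the series differed 10.0-fold, and 97.4% of the bright genes had a smaller pooled SD.

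JUN, the main partner of FOS in AP-1, was far steadier. In prednisolone animals it ran from 12.34 on P30 through a median of 12.81 to 13.52 on P25, and in controls from 12.34 on C17 through 12.68 to 13.36 on C23. Its means were 12.83 ± 0.36 in prednisolone animals and 12.78 ± 0.38 in controls (SD, n = 8 and 7). The difference was 0.05 log2 (95% interval -0.36 to 0.46, adjusted p = 0.995 in limma), and a 2-fold change lies outside that interval. The sign was not fixed by the data, since the difference was -0.05 without P25 and 0.15 without C23.

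JUNB, an AP-1 subunit that can oppose JUN and is needed to keep muscle mass in mice, had the same 2 animals at its top. It was 11.74 on P25, 11.36 on P32 and 11.22 on P31, and between 10.48 and 10.93 in the other prednisolone animals. In controls it was 11.86 on C23, 10.38 on C24 and between 10.80 and 10.97 in the other animals, a narrow middle with 1 animal far above it. The means were 10.99 ± 0.42 in prednisolone animals and 10.96 ± 0.45 in controls (SD, n = 8 and 7). The difference was 0.03 log2 (95% interval -0.44 to 0.50, adjusted p = 0.998 in limma), and it was -0.08 without P25 and 0.18 without C23.

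ATF3, a stress-induced bZIP factor that joins AP-1 dimers or acts alone as a repressor, had the widest range of the 9 genes. It reached 15.48 on P30 and 15.37 on P31, lay between 12.22 and 14.07 in 5 prednisolone animals and was 11.23 on P29. In controls it ran from 12.15 on C21 through a median of 12.98 to 14.65 on C23. The highest and the lowest animal thus differed 19.1-fold, and both belonged to the prednisolone group. The means were 13.44 ± 1.49 in prednisolone animals and 13.10 ± 0.88 in controls (SD, n = 8 and 7). The difference was 0.34 log2 (95% interval -0.95 to 1.62, adjusted p = 0.993 in limma). It was 0.65 without P29 and 0.05 without P30. With arrays weighted by their quality it was -0.12.

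EGR1, a zinc finger factor induced through SRF that is widely used as a marker of recent stimulation, was high in 1 animal of each group. It was 13.56 on P25, 12.34 on P31, 11.84 on P27 and 11.83 on P29, and between 9.78 and 10.58 in the other prednisolone animals. In controls it was 13.15 on C23 and between 9.72 and 11.47 in the other animals. The means were 11.34 ± 1.27 in prednisolone animals and 10.89 ± 1.16 in controls (SD, n = 8 and 7). The difference was 0.44 log2 (95% interval -0.81 to 1.70, adjusted p = 0.993 in limma). It was 0.13 without P25 and 0.82 without C23, so these 2 animals moved it in opposite directions.

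MYC, a factor that drives ribosome production and growth, was highest on P31 and P30 in the prednisolone group, at 10.38 and 10.30, and was 8.50 on P29 and 8.66 on P32. The other prednisolone animals lay between 9.36 and 9.47. In controls it ran from 8.33 on C21 through a median of 9.69 to 10.84 on C23. The means were 9.42 ± 0.67 in prednisolone animals and 9.49 ± 0.83 in controls (SD, n = 8 and 7). The difference was -0.06 log2 (95% interval -0.84 to 0.72, adjusted p = 0.996 in limma), between -0.26 without C21 and 0.16 without C23.

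IER2, a small nuclear protein, was the steadiest of the 9, and 39.5% of the bright genes had a smaller pooled SD. It ran from 11.48 on P26 through a median of 11.86 to 12.43 on P25 in prednisolone animals, and from 11.11 on C20 through 11.73 to 11.95 on C23 in controls. The means were 11.87 ± 0.32 in prednisolone animals and 11.64 ± 0.27 in controls (SD, n = 8 and 7). The difference was 0.23 log2 (95% interval -0.11 to 0.57, adjusted p = 0.993 in limma), and it lay between 0.14 without C20 and 0.29 without P26.

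IER3, a regulator of cell survival under stress, had the largest difference of the 9. In prednisolone animals it was 13.13, 13.60, 14.41, 12.90, 12.67, 12.05, 13.51 and 13.43 on P25 to P32. In controls it was 12.30 on C17, 10.87 on C18, 12.00 on C20, 13.03 on C21, 12.75 on C22, 13.40 on C23 and 12.75 on C24. Of the 8 prednisolone animals 6 lay above the control median, and the groups overlapped, with P30 below 5 of the controls. The means were 13.21 ± 0.70 in prednisolone animals and 12.44 ± 0.83 in controls (SD, n = 8 and 7), a 1.70-fold ratio. The difference was 0.77 log2 (95% interval -0.03 to 1.57). Its unadjusted p was 0.058 and its adjusted p 0.993 in limma, and a two-sided exact permutation test of the means gave 0.072. The difference was 0.51 without C18 and 0.93 without P30. With arrays weighted by their quality it was 0.57. Among the bright genes, 98.6% had a smaller difference in size, but 93.0% also had a smaller pooled SD.

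CCN2, a secreted matrix protein that acts downstream of YAP and TGF-beta signalling and is linked to fibrosis, was highest on P31, P25 and P26, at 12.95, 12.81 and 12.64. The other prednisolone animals lay between 11.54 and 12.01. In controls it ran from 10.73 on C24 through a median of 11.98 to 12.26 on C22. The means were 12.16 ± 0.55 in prednisolone animals and 11.73 ± 0.57 in controls (SD, n = 8 and 7). The difference was 0.42 log2 (95% interval -0.17 to 1.02, adjusted p = 0.993 in limma), and it lay between 0.26 without C24 and 0.51 without P32. The difference of the medians had the other sign, -0.05.

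**Figure D2:**
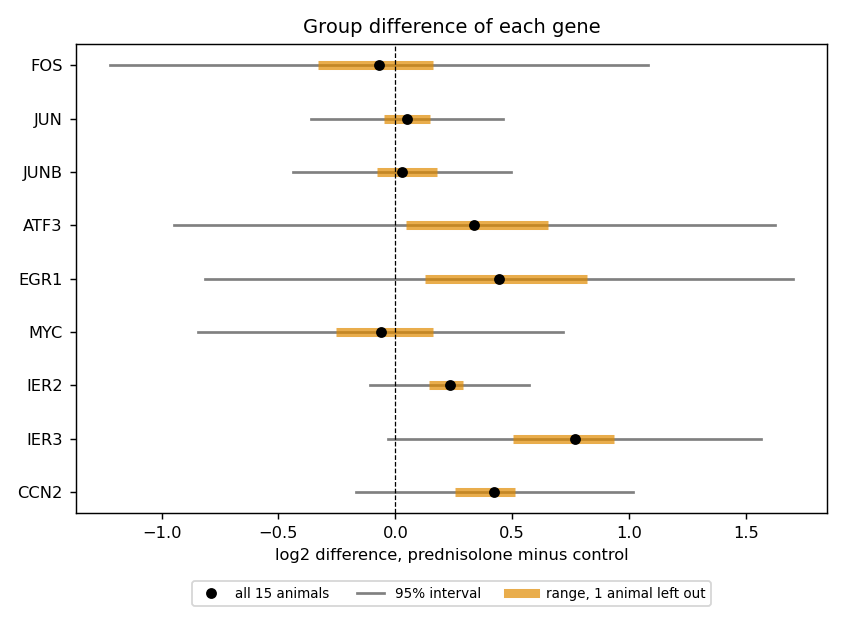
Log2 difference of each gene, prednisolone minus control (black points), with its 95% interval (grey) and the range of the difference when each of the 15 animals is left out in turn (orange). Every interval includes 0, and the intervals of FOS, ATF3 and EGR1 are the widest.

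The wider early response was read from 6 lists of genes that act beside, above or below these 9. Of 116 listed genes 112 were measured, and 0 were called, against 0% of all genes. Of the 112, 8 had an unadjusted p under 0.05 in limma, 7 of them higher and 1 lower. Over all genes that share was 3.23%. The difference was positive for 70 and negative for 42, beside 8093 positive and 7404 negative over all genes. The median was 0.047 log2 beside 0.011 over all genes. It moved to 0.086 without P31 or C18, to 0.089 without C23, and lay between 0.036 and 0.098 under the alternatives run. The genes named in the next sentences are among the pair with the smallest unadjusted p in each list, and each had an adjusted p of 0.993 in limma. Because they were picked from these same values, their position against the control median is a description and no separate evidence. The share of all genes so placed is not given.

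Among AP-1 partners and related bZIP factors, 13 of 14 genes were measured and 0 had an unadjusted p under 0.05. DDIT3, a stress-induced bZIP factor, averaged 8.88 ± 0.39 in prednisolone animals and 8.47 ± 0.38 in controls (SD, n = 8 and 7). MAFK, a small MAF protein that dimerises with other bZIP factors, differed by 0.26 log2 (0.17 without C20). Of the EGR, NR4A, KLF and other early transcription factors, 17 of 18 were measured. BHLHE40, a repressor linked to the circadian clock, averaged 11.53 ± 0.79 in prednisolone animals and 10.53 ± 1.06 in controls (SD, n = 8 and 7), a difference of 1.01 log2 (95% interval 0.05 to 1.96), which was 0.57 with arrays weighted by their quality. ID2, an inhibitor of bHLH factors, differed by 0.32 log2 (0.20 without C20).

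Of the early feedback regulators 33 of 34 were measured, 17 with a positive and 16 with a negative difference. PLK3, a stress-responsive kinase, averaged 8.20 ± 0.50 in prednisolone animals and 7.65 ± 0.45 in controls (SD, n = 8 and 7). ERRFI1, an inhibitor of the EGF receptor that glucocorticoids are known to induce in other cells, averaged 8.95 ± 0.68 in prednisolone animals and 8.25 ± 0.61 in controls (SD, n = 8 and 7). All 8 prednisolone animals lay above the control median for both genes, while the groups overlapped. With quality weights the difference of ERRFI1 was 0.35 log2, against 0.69 without them.

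The secreted and enzyme products had the highest median of the 6 lists, 0.20 log2 over 12 measured genes. CCL2, a monocyte chemokine, differed by 1.79 log2 (95% interval 0.50 to 3.09), and 7 of 8 prednisolone animals lay above the control median. The difference of CCL2 was 1.26 log2 with arrays weighted by their quality, and 1.38 log2 without P31 and C20. Of the 26 measured kinases and factors upstream, 19 had a positive and 7 a negative difference. SRF, the factor that switches on FOS and EGR1, averaged 12.56 ± 0.17 in prednisolone animals and 12.23 ± 0.30 in controls (SD, n = 8 and 7), a difference of 0.34 log2 with an unadjusted p of 0.024. All 8 prednisolone animals lay above the control median of SRF. RPS6KA5, a kinase that phosphorylates CREB and histone H3, had a difference of -0.33 log2, and 2 of 8 prednisolone animals lay above the control median. Of the 11 MYC partners, MLX, a MAX-like dimerisation partner, differed by 0.42 log2. ZBTB17, through which MYC represses genes, differed by 0.66 log2. That was 0.38 without C20, and 0.22 with 50 added to the intensities before log2, an addition that weighs on dim probes. With the same addition MLX differed by 0.26 log2.

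Some animals were high or low for most of the 9 genes. In the prednisolone group P31 lay above the group mean for 8 genes and was the highest animal for FOS, MYC and CCN2. P25 lay above it for 7 genes and was the highest for JUN, JUNB, EGR1 and IER2. P28 lay below the group mean for all 9 genes. In the control group C23 was the highest animal for 8 of the 9 genes and lay above the mean for all 9, while C24 lay above it for 1.

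**Figure D3:**
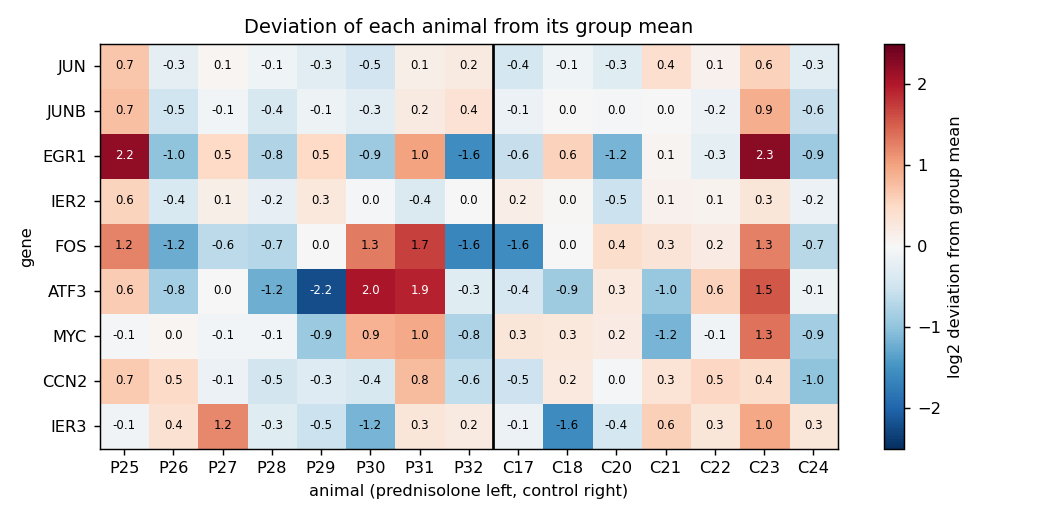
Log2 deviation of each animal from the mean of its own group for each of the 9 genes, prednisolone animals left and controls right of the line. P28 is below its group mean in every row, C23 is above its group mean in every row, and the strongest colours are those of EGR1, FOS and ATF3.

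Co-variation was measured on deviations from the group mean, so that a group difference could not produce it, with two-sided p-values from 100000 permutations within groups and adjustment over the 36 pairs of genes. Pearson's r was positive for 32 of 36 pairs, with a median of 0.39 and a range from -0.11 to 0.80. It had an unadjusted permutation p under 0.05 for 12 pairs and an adjusted p under 0.05 for 2, JUN with JUNB and ATF3 with MYC. By Spearman's rho 0 pairs passed. The pairs were positive in 27 cases among the prednisolone animals, with a median r of 0.32, and in 35 cases among the controls, with a median r of 0.55. The difference between these medians was not tested. C23 was the highest control for 8 of the 9 genes, so this 1 animal weighs on many of the control values. JUNB with MYC had r = 0.76 among the controls. Over all animals its r was 0.35, and 0.01 without C23. By contrast, r of ATF3 with MYC stayed at 0.68 or above with any 1 animal left out. Neither median is given without C23. For each gene, the 5% of the 9724 other bright genes most correlated with it held 31 of the 72 places that the other 8 members could take, or 43.1%. This share, too, is given with all animals only.

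**Figure D4:**
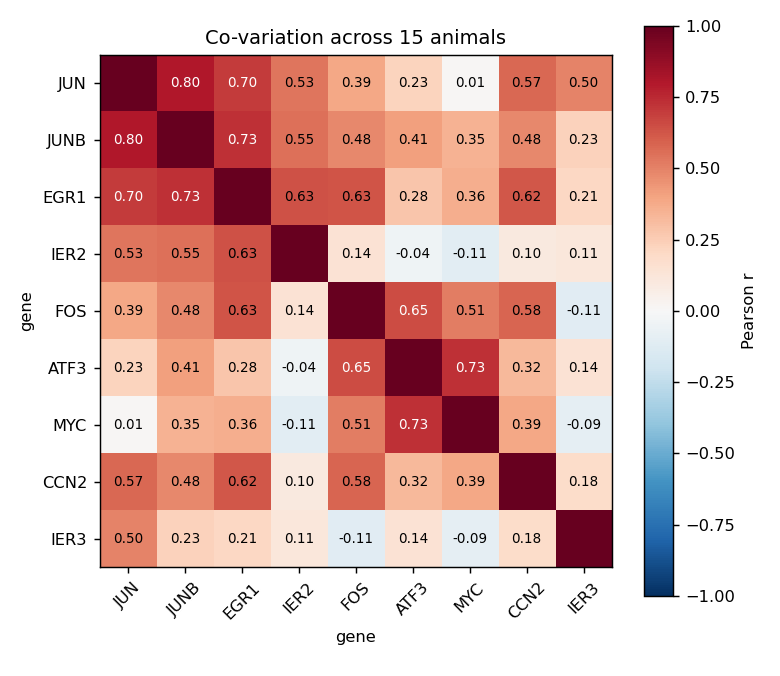
Pearson's r between each pair of the 9 genes over the 15 animals, from deviations from the group means. JUN, JUNB and EGR1 form 1 block of high values, with r from 0.70 to 0.80, and ATF3 is closest to MYC and FOS, with r of 0.73 and 0.65.

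JUN and JUNB had r = 0.80 (adjusted permutation p = 0.0122) and rho = 0.72 (adjusted permutation p = 0.157). Within groups r was 0.89 in prednisolone animals and 0.71 in controls. Without P25 and C23, the animals farthest from the median of JUN, r was 0.56 and the adjusted permutation p 0.571. The pair no longer passed with either of them left out alone, with r = 0.72 and an adjusted permutation p of 0.070 without P25, and r = 0.74 and 0.143 without C23. On the 3 slides that held a pair of prednisolone arrays, deviations from the slide mean gave r = 0.99 over 6 arrays, which rests on 3 differences. The widest was that of P25 and P26, at 13.52 and 12.58 for JUN and 11.74 and 10.48 for JUNB. This r therefore leans on P25 as well. It was not particular to this pair, with 0.97 for JUN with EGR1 and 0.98 for JUN with IER2, but -0.29 for JUN with MYC. EGR1 had r = 0.70 with JUN and 0.73 with JUNB (adjusted permutation p = 0.0527 for each). These values were 0.32 and 0.28 without P25 and C23, so these relations rest largely on the animals in which all 3 genes were high.

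ATF3 and MYC had r = 0.73 (adjusted permutation p = 0.0292) and rho = 0.61 (adjusted permutation p = 0.170). Within groups r was 0.85 in prednisolone animals and 0.67 in controls, and it was 0.57 without P30 and P31. The pair no longer passed without P25, P30, P31, C21 or C23 alone, with an adjusted permutation p of 0.070, 0.057, 0.069, 0.073 and 0.182 in turn, while r stayed between 0.68 and 0.78 with any 1 animal left out. FOS was correlated with ATF3 at r = 0.65 and with EGR1 at 0.63, each with an adjusted permutation p of 0.0919. MYC and JUN had r = 0.01, but single animals moved that value, to -0.33 without C23 and to 0.19 without C21. For IER3 the values ran from r = -0.11 with FOS to 0.50 with JUN, and none of the other 8 genes lay in the top 5% of IER3.

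Each of the 9 genes also had close companions among the other bright genes. The 3 with the highest r of deviations over the 15 animals are given as a description, with no test, since they are the highest of 9724. Over these genes the median r with a member lay between -0.08 for CCN2 and 0.09 for IER2.

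CCN2 was closest to THBS1 (r = 0.92, rho = 0.91), which encodes a matrix glycoprotein. CREB5, a bZIP factor, and TUBB6, a beta-tubulin, followed at r = 0.90 and 0.89. Without P31 and C24 the r with THBS1 was 0.87, and the lowest value with 1 animal left out was 0.90. ATF3 was closest to OTUD1, a deubiquitinase, BTG2, an early growth inhibitor, and ANKRD1, a stretch-induced muscle protein, with r of 0.89, 0.87 and 0.85. These were 0.79, 0.83 and 0.73 without P30 and P31. MYC was closest to NDEL1, a dynein regulator, at 0.90, to KLF4, a zinc finger factor of the early response, at 0.83, and to DDX5, an RNA helicase, at 0.83.

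EGR1 was closest to LMNA, which encodes the nuclear lamins A and C, with r = 0.85 and 0.83 without P25 and C23. Its r with DPYSL4, a dihydropyrimidinase relative, was 0.77. FOS was closest to TUBB4B, a beta-tubulin, at 0.83, to VCL, which links actin to adhesions, at 0.81, and to ODC1, the first enzyme of polyamine synthesis, at 0.81. A second VCL probe had r = 0.49 with FOS. JUN was closest to FLNA, an actin cross-linker, at 0.80 (0.85 without P25 and C23), then to JUNB and to ADARB1, an RNA-editing enzyme, at 0.80. JUNB was closest to JUN, to CNN1, a calponin of smooth muscle, at 0.79, and to PDPN, a membrane glycoprotein, at 0.76.

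IER2 was closest to a probe listed under SKOR2, whose description gives the name LBXCOR1 instead, at r = 0.85. It was then closest to HHATL, a relative of acyltransferases, at 0.82 (0.52 without P25 and C20), and to SLC16A5, a monocarboxylate carrier, at 0.82. IER3 was closest to CSRP2, a LIM-domain protein, at 0.87, to COX10, needed for haem A synthesis, at 0.86, and to SLC1A7, a glutamate transporter, at 0.84. Without P27 and C18 these were 0.82, 0.72 and 0.68.

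**Figure D5:**
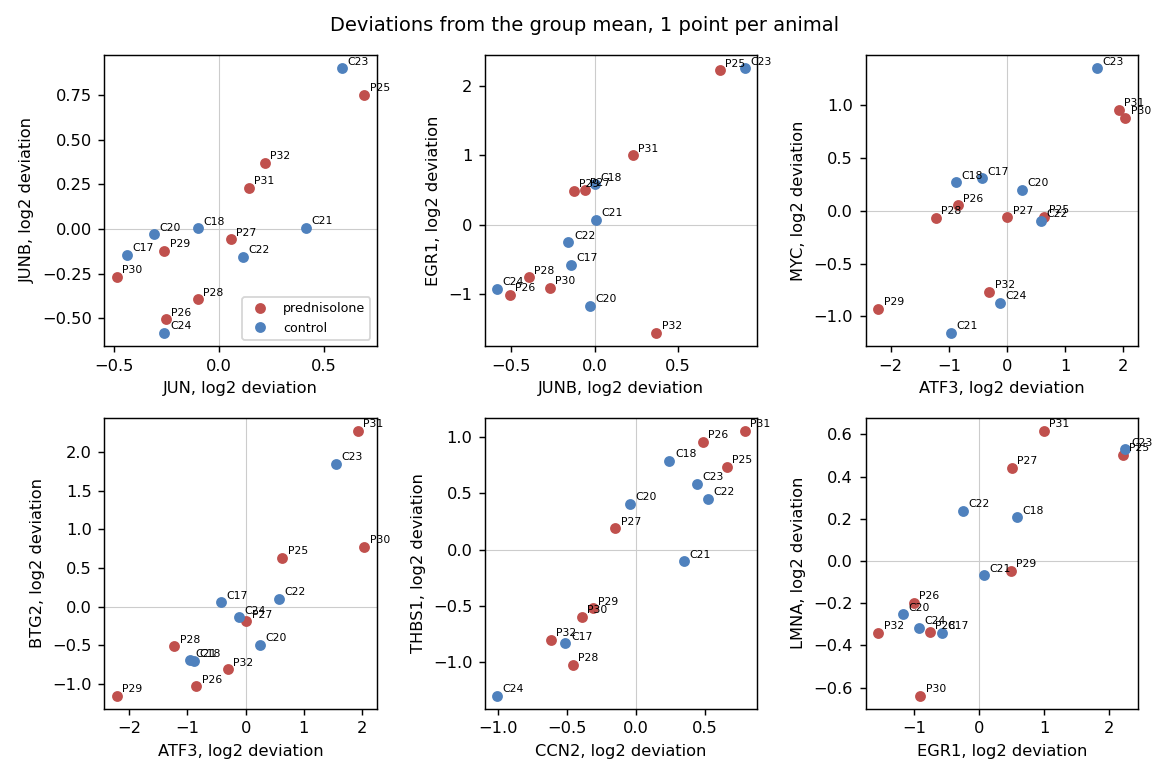
Log2 deviations from the group mean for 6 pairs of genes, 1 point per animal, prednisolone in red and control in blue. JUNB and EGR1 rise with JUN and JUNB in large part through P25 and C23, whereas THBS1 follows CCN2 over the whole range of animals.

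Genes of the 6 early response lists were likewise placed among these companions, chosen here after their values were seen. Of the 801 places that their 89 bright genes could take over the 9 members, 133 lay in a member's top 5%, or 16.6%. MYC had 26 of the 89 in its top 5%, among them GADD45B at r = 0.81 and CSRNP1 at 0.78. JUNB had 23, ATF3 had 22 and FOS had 18, including NR4A1, an orphan receptor induced by contraction, at r = 0.79. IER2 had 5, the fewest. At the other end, FOSB, from the list of AP-1 partners, had the lowest r with JUN of the 9724 bright genes, at -0.76. Of the 11 genes of that list with values on all arrays, 8 had a positive r with JUN, with a median of 0.12.

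Each of the 9 genes was also set against lists of markers of cell types, other tissues and heat shock. Over 99 pairs of a gene and a marker list, 0 had an adjusted permutation p under 0.05 and 8 had an unadjusted one, and these 8 are given here as values. JUN and the mean of the 8 smooth muscle and pericyte markers had r = 0.73 (rho = 0.65, adjusted permutation p = 0.188), and their list mean ran from 10.23 to 11.30 in prednisolone animals and from 10.42 to 10.97 in controls. That r was 0.57 without the farthest pair, P25 and P30. Without P31 it was 0.81, with an adjusted permutation p of 0.0277. CCN2 and the mean of the 8 fibroblast markers had r = 0.72 (rho = 0.68, adjusted permutation p = 0.188), with a list mean from 11.04 to 12.82 in prednisolone animals and from 11.35 to 12.52 in controls. That r was 0.63 without P25 and P32, and 0.86 without P31 (adjusted permutation p = 0.0277). FOS and the mean of the 9 muscle fibre markers had r = 0.70 (rho = 0.62, adjusted permutation p = 0.188). That r was 0.92 in prednisolone animals and 0.35 in controls, 0.56 without the farthest pair, P25 and P32, and 0.85 without C23 (adjusted permutation p = 0.0198). Taken singly, 5 of the 9 markers had a positive r with FOS, with a median of 0.10. The part of cell composition in these results was not tested.

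The 13 heat shock genes, which encode chaperones, were highest on P31 and C23, with list means of 14.98 and 14.89, against 14.00 to 14.49 in the other prednisolone animals and 13.88 to 14.31 in the other controls. The r of their mean was 0.66 with MYC (rho = 0.41, adjusted permutation p = 0.312) and 0.57 with ATF3 (rho = 0.41, adjusted permutation p = 0.440). Without P31 and C23 the values were 0.23 and 0.13, so both values rest on these animals. With CCN2 it was 0.60 (rho = 0.59, adjusted permutation p = 0.412), at 0.47 without P31 and C23, and at 0.78 without P25, where the pair passed with an adjusted permutation p of 0.0406. ATF3 and the testis germ cell transcripts had r = 0.60 (rho = 0.57, adjusted permutation p = 0.440), and 0.48 without P31 and C20. The correlation of ATF3 with MYC was 0.68 without P31 and C20 (adjusted permutation p = 0.070). IER3 and the 10 leukocyte markers had r = -0.57 (rho = -0.60, adjusted permutation p = 0.440). CCN2 was the member most related to the share of spots with a value, at r = 0.57 (rho = 0.65, adjusted permutation p = 0.299). What part of the co-variation these measures account for was not tested.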

How the data were processed

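The authors deposited 1 linear intensity per spot and array. Per the labels' design text these are background-subtracted, detrended signals, and the submitters' processing notes name R 2.11.1. How the arrays were scaled is not given in the sources used. Scanner output of the prednisolone arrays gave probe names, detection flags and slides. That of the controls was not used, and their slides are not known here. After log2 transformation, each array was shifted to a common 75th percentile over 14324 probes, and spots of a probe were averaged. Probes with at least 3 values per group (20894) were tested with limma 3.58.1 (R 4.3.3), and p-values were adjusted by Benjamini-Hochberg across all of them. The brightest probe stood for a gene. On data simulated from this comparison, over 11340 genes, with 100 genes changed by 1 log2 and 100 by 2 log2, the fit recovered 73% and 93% of them in turn and called 8 unchanged genes. These shares are not split by the spread of a gene, so they do not describe genes as variable as FOS, ATF3 and EGR1. They also hold only for many genes changed together. Where few genes change, the adjustment asks for a smaller p, and the share recovered would be lower. Correlations used NumPy 2.4.6. Named genes are the 9 members, the 2 list genes with the smallest p per list, and the 3 most correlated genes per member; 1 list gene is not reported here. Alternatives covered scaling, filters, variance model, probe choice and animals left out. Members, lists and markers were chosen with earlier results of these data known. Arrays are separate animals per the labels.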

Additional observations from a re-analysis of the deposited data

Results flagged for a closer look

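In a check for single animals standing far from the rest of their group, 42 groups of 7 or 8 values were tested (the 9 immediate early genes and the 12 named list genes), and 3 were set apart. Chance sets apart about 1 in 20 groups. JUNB was 11.86 on C23, while the next control was at 10.97 and the lowest at 10.38, so the gap took 0.603 of the whole range. ZBTB17 was 6.22 on P27, with the next prednisolone animal at 5.14. It was 2.80 on C20, with the next control at 4.22, and the difference of ZBTB17 was 0.66 log2 with all animals and 0.38 log2 without C20.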

How the results depend on the processing

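None of the 9 genes and none of the early response list genes was called in limma under any alternative run. Differences of ATF3, EGR1, IER2, IER3 and CCN2 kept their sign, except that ATF3 was -0.12 with array quality weights. With these weights JUN was -0.065, JUNB -0.044, FOS -0.48, MYC -0.20, EGR1 0.15 and CCN2 0.22. Without P31 and C20 together JUN was -0.021, JUNB -0.00849, FOS -0.24, MYC -0.17, ATF3 0.10 and EGR1 0.11. Scaling also moved small differences by over 1.5 times without turning them: JUNB was 0.05 with equal medians and 0.0093 with cyclic loess, JUN 0.029 with cyclic loess, and MYC -0.041 with equal medians and -0.024 with quantile normalization. With 1 animal left out FOS ranged from -0.33 to 0.16, JUN from -0.048 to 0.15, JUNB from -0.078 to 0.18 and MYC from -0.26 to 0.16. Over all genes, calls ranged from 0 to 1 with 1 animal left out: PZP without P31, and ZNF696 without C23. Without P31 and C20 together the count was 1, again PZP. Both are named after their values were seen. The 2 pairs of immediate early genes past the adjusted p became 5 with quantile normalization, 0 without P25 and C23 together (added after seeing the data), and ranged from 0 (without P25 or C23) to 5 (without P29) with 1 animal left out. Pairs with a marker list ranged from 0 to 2 with 1 animal left out. The causes were not tested. No paired analysis was possible because the groups share no animal number. With 15 arrays, the 95% interval of a bright gene had a median half-width of 0.37 log2.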
